A study of Mus musculus with 8 samples.

Results

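The proteasome genes of IL-4 stimulated mouse macrophages were taken as the 47 of 24421 gene symbols that start with Psma, Psmb, Psmc, Psmd, Psme, Psmf or Psmg and a digit. Psmb8, Psmb9 and Psmb10, the catalytic subunits of the immunoproteasome, were left out, as were names marked as pseudogenes. Bone marrow-derived macrophages (BMDM), grown in culture from bone marrow, had been given IL-4, the cytokine of alternative activation, for 24 h. In 4 libraries (CKO, replicates 2, 6, 7 and 8) the cells came from OPA1f/f; Lyz2-Cre mice, in which Cre recombinase is made in myeloid cells from the Lyz2 locus and acts on loxP-flanked Opa1, the gene of an inner mitochondrial membrane fusion GTPase. The other 4 (FLOX, replicates 3, 4, 6 and 7) were from mice labelled OPA1f/f alone. All 8 libraries thus carry the floxed allele and had IL-4, and only CKO carries Cre, so loss of Opa1, presence of Cre and a batch that the labels do not name cannot be told apart. The labels give no age and do not say whether each library is 1 mouse, so p-values measure the spread between these libraries, which may be technical.

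The proteasome is the protease that degrades ubiquitin-tagged proteins in the cytosol and nucleus. Its 20S core is a barrel of stacked alpha and beta rings, and only the beta subunits encoded by Psmb5, Psmb6 and Psmb7 cut peptide bonds in the constitutive form. A 19S particle caps the barrel: its base of ATPases and scaffold subunits unfolds substrates, and its lid removes ubiquitin. Dedicated chaperones put the parts together, and activators such as PA28 and PA200 can replace the cap. In macrophages interferons favour the immune catalytic subunits and PA28, which shape peptides for antigen presentation.

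The smallest library, CKO replicate 2, had 11764855 pairs counted in genes and the largest, FLOX replicate 6, had 18939948. Levels are given as CPM, counts per 1000000 of the library size scaled by TMM factors. The defining macrophage markers Adgre1 and Csf1r stood above 1000 CPM in every library, whereas the summed islet markers, examined because the protocol text speaks of islets, reached at most 0.108 CPM, with 7 of 8 at 0. Lyz2, which holds the Cre insertion, was at 27.3% of FLOX, and Opa1 at 87.7% (edgeR adjusted p = 0.0544). Opa1 was counted over the whole gene, so its value does not check the floxed part alone. The macrophage list summed to 6899.7 to 7434 CPM in CKO and 7649 to 8065 CPM in FLOX (1 of 8 genes higher, 3 lower). Fcgr1 was the gene called higher, and Csf1r, Cd68 and Mertk were called lower. Csf1r stood at 74.7% of FLOX (edgeR adjusted p = 0.000648). Levels on this list were lowest for Fcgr1, at 27.2 to 63.0 CPM, and Mertk, at 30.3 to 68.5 CPM. Summed markers of neutrophils and their precursors (3 of 4 tested genes higher, Elane at 0) were 4.56 to 10.1 CPM in CKO and 1.92 to 3.23 CPM in FLOX. Those of endothelium (2 of 2 tested higher) summed to 29.6 to 32.8 CPM in CKO, against 17.9 to 22.9 CPM in FLOX. Nearly all of the endothelial sum was Pecam1 and Kdr, while Cdh5 reached at most 0.264 CPM and Tek at most 0.108 CPM in any library. The stromal list was at 1.15 to 2.35 CPM in CKO and 1.19 to 1.44 CPM in FLOX, and the lymphoid list stayed under 1 CPM. Over all tested genes 23.8% were called higher and 21.6% lower in CKO. The part of the cells behind these markers in the proteasome values was not tested.

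Most constitutive proteasome genes differed little between the genotypes. Of the 47 members 46 had enough counts to be tested, and 11 were called higher and 3 lower in CKO at an edgeR adjusted p under 0.05. Over all 11519 genes tested 45.4% were called, against 30.4% of the tested members. In this fit the share of members called higher, 23.9%, was close to that of all genes, 23.8%. Called lower were 6.52% of members, against 21.6% of all genes. The counts behind these shares moved with the library left out, as given in the closing section. In 13 members the ranges of the genotypes did not overlap, against 42.7% of all tested genes. The median log2 fold change was 0.09 over the tested members and -0.02 over all tested genes. Psmc3ip, which is no proteasome subunit, is counted among the 11 called higher and the 13 without overlap. Apart from Psmc3ip, no tested member moved by more than 0.40 on the log2 scale. The plot of fold changes shows each tested member with its interval.

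**Figure D1:**
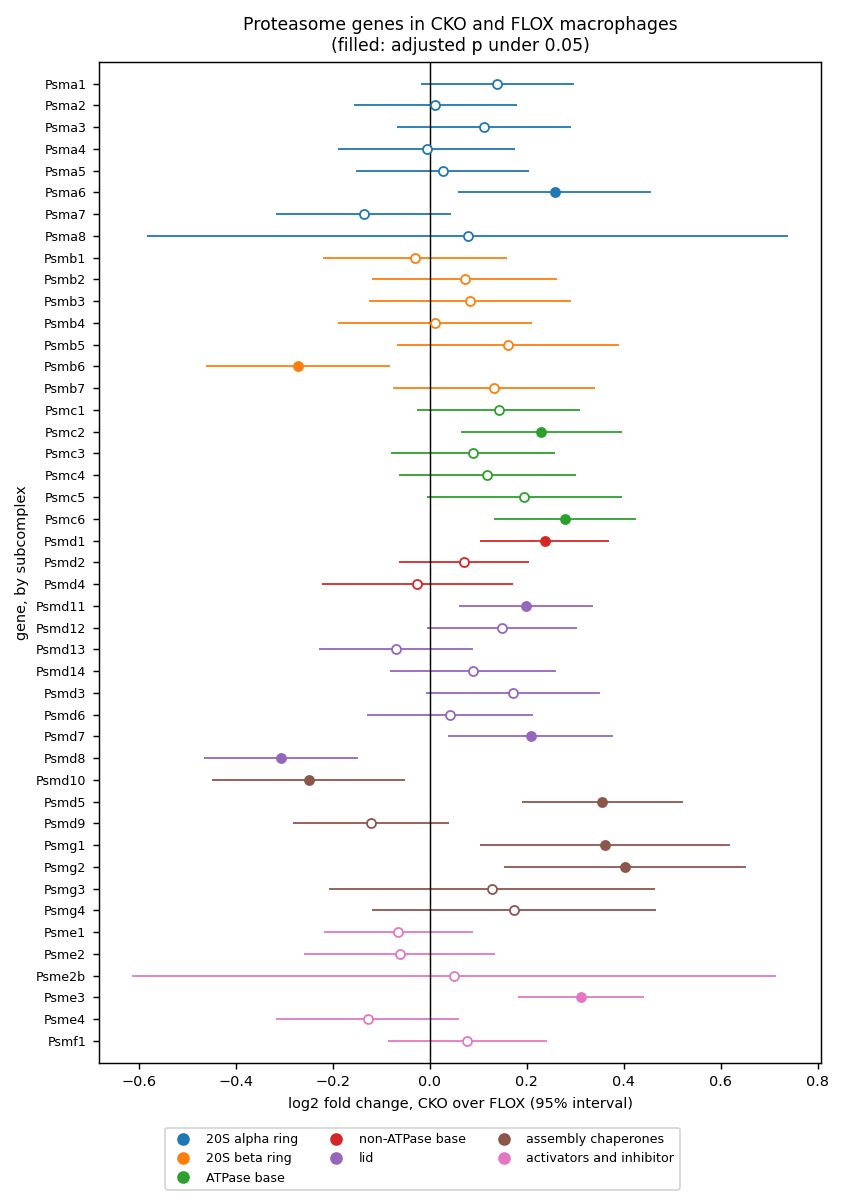
The log2 fold change of CKO over FLOX (x axis) is drawn for 45 tested proteasome genes (y axis, grouped and coloured by subcomplex), with Psmc3ip left out. Points are estimates from 4 CKO and 4 FLOX libraries, lines are 95% intervals, and filled points have an edgeR adjusted p under 0.05. All filled points lie between -0.31 and 0.40.

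The FLOX libraries differed more among themselves than the CKO libraries did. Over the tested genes FLOX replicates 3 and 6 were closer to each other, and 4 and 7 to each other, than the other FLOX pairs were. The values are given with the processing. All members together summed to 5202, 5235, 5287 and 5097 CPM in CKO replicates 2, 6, 7 and 8, against 5482, 4849, 5244 and 4636 CPM in FLOX replicates 3, 4, 6 and 7. The CKO sums lie inside the FLOX range. FLOX replicate 3 was the highest FLOX library for 33 of 46 tested members (for 32.5% of all tested genes), and FLOX replicate 7 the lowest for 34 (29.0% of all tested genes). The coefficient of variation was larger in FLOX than in CKO for 41 of 46 members, with medians of 4.29% in CKO and 10.4% in FLOX. Over all tested genes the medians were 6.86% in CKO and 10.1% in FLOX, and 68.5% of genes varied more in FLOX. The share of read pairs falling in no gene also differed, at 6.52%, 7.48%, 7.60% and 8.51% in CKO replicates 2, 6, 7 and 8, against 7.67%, 9.41%, 7.02% and 9.60% in FLOX replicates 3, 4, 6 and 7. The 2 FLOX libraries with the lowest proteasome sums thus have the highest shares outside genes, and the part of this in the sums was not tested. In bulk RNA a change in cell mixture and a change in RNA per cell cannot be told apart.

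**Figure D2:**
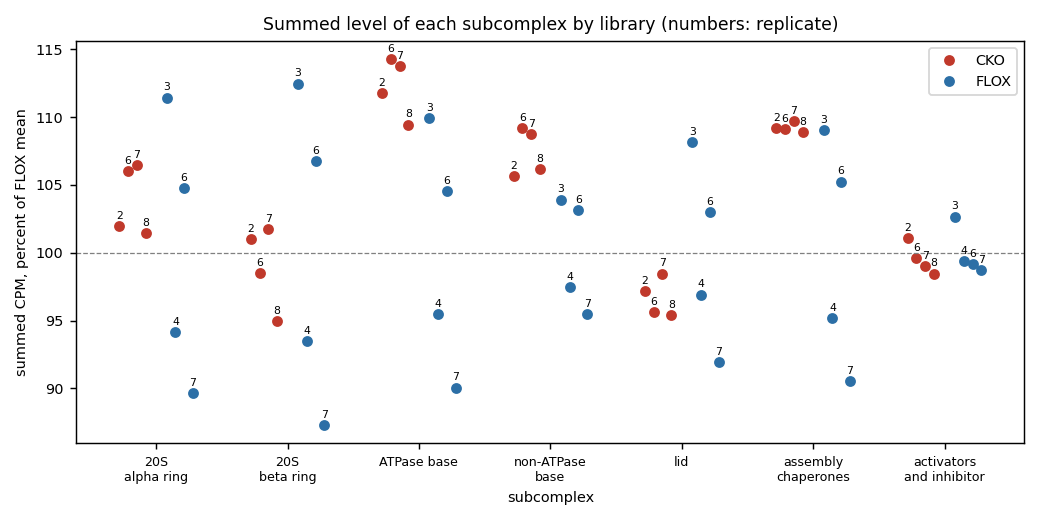
Summed CPM of each of 7 subcomplexes (x axis) in every library, as percent of the FLOX mean of that subcomplex (y axis). Red points are the 4 CKO libraries and blue points the 4 FLOX libraries, numbered by replicate. FLOX replicate 3 lies highest and FLOX replicate 7 lowest of the FLOX libraries in all 7, and the CKO points lie closer together in all 7, and above every FLOX point only for the non-ATPase base.

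In the alpha ring, which forms the gated ends of the core barrel, 1 of 8 tested genes was called, as higher. That is 12.5%, against 45.4% of all tested genes, and the median log2 fold change was 0.05. Psma6, the alpha1 subunit (ENSMUSG00000021024, chromosome 12, 55384222 to 55418454, mm10), had 121, 135, 135 and 123 CPM in CKO replicates 2, 6, 7 and 8, against 119, 102, 115 and 92.5 CPM in FLOX replicates 3, 4, 6 and 7. Every CKO library was above every FLOX library, although CKO replicate 2 and FLOX replicate 3 came close. The level in CKO was 119.5% of FLOX (edgeR log2 fold change 0.26 with an SE of 0.08, adjusted p = 0.0208), and the call was lost without FLOX replicate 4 (edgeR adjusted p = 0.0525). Psma1, the alpha6 subunit, had 145, 154, 154 and 148 CPM in CKO, against 147, 128, 143 and 126 CPM in FLOX in the same order of replicates. Its ranges overlapped through FLOX replicate 3 (edgeR log2 fold change 0.14 with an SE of 0.06, adjusted p = 0.0981), and it was called without CKO replicate 2 (edgeR adjusted p = 0.0464) or without FLOX replicate 3 (edgeR adjusted p = 0.0363). Psma7, the alpha4 subunit, stood at 115 ± 3.80 CPM across CKO libraries, against 126 ± 13.1 CPM across FLOX libraries (SD, n = 4 each) and was not called (log2 fold change -0.14, edgeR adjusted p = 0.152). Its germ cell counterpart Psma8 was near the detection limit, with 1.26, 0.857, 0.986 and 1.15 CPM in CKO and 1.33, 0.681, 1.19 and 0.710 CPM in FLOX.

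The beta ring holds the proteolytic sites. Of its 7 tested genes 1 was called, as lower (14.3%, against 45.4% of all tested genes, median log2 fold change 0.07). Psmb6, which encodes the caspase-like catalytic subunit beta1 (ENSMUSG00000018286, chromosome 11, 70525367 to 70527858), had 159.6, 151, 158 and 144 CPM in CKO replicates 2, 6, 7 and 8, against 211, 177, 189 and 163 CPM in FLOX replicates 3, 4, 6 and 7. All CKO libraries were below all FLOX libraries, CKO replicate 2 and FLOX replicate 7 being nearest to each other. The CKO level was 82.9% of FLOX, with a 95% interval from 72.6% to 94.5% (edgeR log2 fold change -0.27 with an SE of 0.08, adjusted p = 0.0126), and without CKO replicate 8 it missed the threshold (edgeR adjusted p = 0.0551). The other 2 catalytic genes went the opposite way in sign and were not called. Psmb5, for the chymotrypsin-like subunit beta5, had 46.8, 48.4, 48.0 and 43.4 CPM in CKO and 44.9, 38.7, 48.1 and 34.8 CPM in FLOX, and Psmb7, for the trypsin-like subunit beta2, had 133, 131, 137 and 127 CPM in CKO and 136, 116, 129 and 100.1 CPM in FLOX. In both, FLOX replicates 3 and 6 lay within or close to the CKO range and FLOX replicates 4 and 7 below it. Their intervals ran from 95.4% to 131% of FLOX for Psmb5 (edgeR adjusted p = 0.182) and from 94.9% to 127% for Psmb7 (edgeR adjusted p = 0.227), and Psmb5 was called only when FLOX replicate 6 was left out (edgeR adjusted p = 0.0474). The thymic gene Psmb11 had 0 counts in all 8 libraries.

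Each constitutive catalytic gene has an immune counterpart that takes its place in the ring, and these 3 immune genes did not all move one way. Psmb8 (beta5i) was at 156 ± 12.6 CPM across CKO libraries, against 122 ± 12.1 CPM across FLOX libraries (edgeR log2 fold change 0.36 with an SE of 0.08, adjusted p = 0.00298) and Psmb9 (beta1i) at 44.3 ± 4.35 CPM across CKO libraries, against 34.9 ± 5.33 CPM across FLOX libraries (edgeR log2 fold change 0.34 with an SE of 0.11, adjusted p = 0.0212; SD, n = 4 each), both higher in CKO. Psmb10 (beta2i) was lower, at 105 ± 10.2 CPM across CKO libraries, against 146 ± 13.9 CPM across FLOX libraries (edgeR log2 fold change -0.48 with an SE of 0.08, adjusted p = 0.000489). Per kilobase of transcript the ratio of Psmb9 to Psmb6 was 0.170 ± 0.0110 in CKO and 0.111 ± 0.00890 in FLOX (SD, n = 4 each), and every CKO library was above every FLOX library. For Psmb10 over Psmb7 it was 0.702 ± 0.0618 in CKO and 1.081 ± 0.0813 in FLOX, with every CKO library below every FLOX library. The ratio of Psmb8 to Psmb5 was 1.85 ± 0.119 in CKO and 1.63 ± 0.132 in FLOX, but CKO replicate 2 alone lay well above the FLOX libraries, while the other CKO libraries, at 1.78 to 1.81, stood just above FLOX replicate 7 at 1.75. No test was made of these ratios. Stretches of 50 bases found in other annotated genes make up 57.1% of the Psmb5 transcript, 28.1% of Psmb7 and 2.67% of Psmb6. Reads from such stretches may be lost from the counts. The immune genes were not examined for such stretches, and their part in the ratios was not tested.

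**Figure D3:**
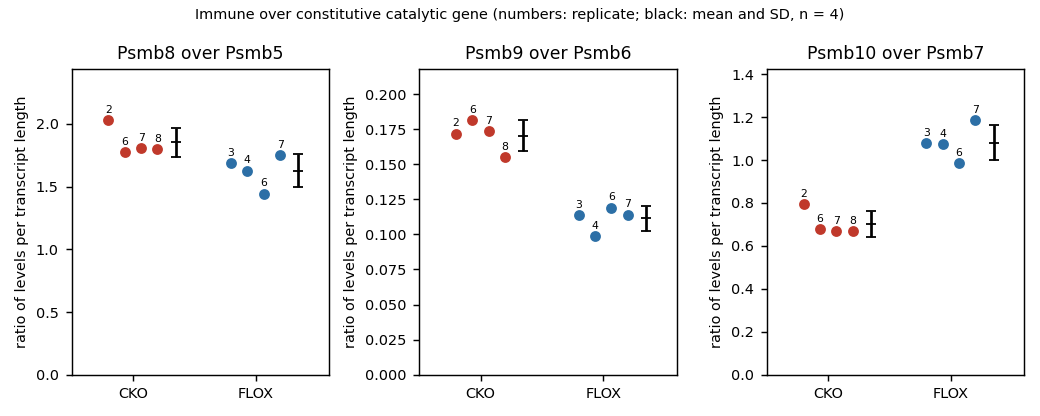
Ratio of an immune catalytic gene to its constitutive counterpart, each per kilobase of transcript (y axes), in CKO (red, left) and FLOX (blue, right) libraries, with the mean and SD in black (n = 4 each). The Psmb9 ratio is higher and the Psmb10 ratio lower in all CKO libraries, while the Psmb8 ratio averages 1.85 in CKO and 1.63 in FLOX.

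In the ATPase ring, the motor that threads substrates into the core, all 6 genes had a positive log2 fold change, between 0.09 and 0.28. Only 2 of them were called, 33.3% against 45.4% of all tested genes. The sign was also positive in 34 of the 46 tested members and in 47.7% of all tested genes. Psmc6, the ATPase Rpt4 (ENSMUSG00000021832, chromosome 14, 45329788 to 45349705), had 137, 142, 145 and 137 CPM in CKO replicates 2, 6, 7 and 8, against 123, 116, 116 and 106 CPM in FLOX replicates 3, 4, 6 and 7. The groups did not overlap (edgeR log2 fold change 0.28 with an SE of 0.06, adjusted p = 0.00222), and the call held in every alternative listed in the closing section. Psmc2, the ATPase Rpt1, had 134, 131, 126 and 127 CPM in CKO, against 118, 105, 118 and 98.9 CPM in FLOX (edgeR log2 fold change 0.23 with an SE of 0.07, adjusted p = 0.0147), again without overlap. Psmc5, the ATPase Rpt6, had 107, 102, 108 and 102 CPM in CKO, against 102, 83.8, 99.8 and 79.1 CPM in FLOX, where FLOX replicate 3 fell within the CKO range. It missed the threshold (edgeR log2 fold change 0.20 with an SE of 0.08, adjusted p = 0.071) and passed it without FLOX replicate 3 (edgeR adjusted p = 0.0184) or FLOX replicate 6 (edgeR adjusted p = 0.0408), or with the 20 most abundant genes removed (edgeR adjusted p = 0.0431). The sum of the ATPase ring was 883 ± 17.2 CPM across CKO libraries, against 786 ± 70.0 CPM across FLOX libraries (SD, n = 4 each), the lowest CKO library being just below FLOX replicate 3.

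Of the 3 other base genes 1 rose and none fell, 33.3% called against 45.4% of all tested genes. Psmd1, the large scaffold Rpn2 (ENSMUSG00000026229, chromosome 1, 86064387 to 86139151), had 202, 215, 224 and 217 CPM in CKO replicates 2, 6, 7 and 8, against 177, 184, 186 and 180.1 CPM in FLOX replicates 3, 4, 6 and 7. Here the FLOX libraries lay close together and all below CKO (edgeR log2 fold change 0.24 with an SE of 0.05, adjusted p = 0.00347). Psmd2, the other scaffold (Rpn1), averaged 389.6 ± 7.69 CPM across CKO libraries, against 371 ± 15.2 CPM across FLOX libraries (SD, n = 4 each) and was not called (log2 fold change 0.07, edgeR adjusted p = 0.315). The ubiquitin receptor gene Psmd4 (Rpn10) averaged 109 ± 2.75 CPM across CKO libraries, against 111 ± 13.7 CPM across FLOX libraries (edgeR adjusted p = 0.818), its CKO range lying inside the FLOX range.

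In the lid 2 of 8 genes rose and 1 fell, the median log2 fold change being 0.12. The share called was 37.5%, against 45.4% of all tested genes. Psmd8, the lid subunit Rpn12 (ENSMUSG00000030591, chromosome 7, 29174188 to 29180701), had the lowest fold change of all tested members. It had 389, 359.5, 378 and 349 CPM in CKO replicates 2, 6, 7 and 8, against 498, 448, 456 and 423 CPM in FLOX replicates 3, 4, 6 and 7, so that no FLOX library reached down to the CKO range. The CKO level was 80.9% of FLOX, interval 72.4% to 90.3% (edgeR log2 fold change -0.31 with an SE of 0.07, adjusted p = 0.00212). Psmd11, the lid scaffold Rpn6, had 71.7, 72.6, 72.3 and 79.1 CPM in CKO, against 65.9, 63.5, 64.0 and 64.4 CPM in FLOX, where the FLOX libraries differed by under 3 CPM (edgeR log2 fold change 0.20 with an SE of 0.06, adjusted p = 0.0123). Psmd7 (Rpn8), the partner of the deubiquitinase, had 114, 108, 111 and 112 CPM in CKO, against 105, 90.5, 102 and 86.5 CPM in FLOX (edgeR log2 fold change 0.21 with an SE of 0.07, adjusted p = 0.0274), and lost its call without FLOX replicate 4 (edgeR adjusted p = 0.0756) or FLOX replicate 7 (edgeR adjusted p = 0.0705). The deubiquitinase gene itself, Psmd14 (Rpn11), stood at 122 ± 4.91 CPM across CKO libraries, against 115 ± 10.4 CPM across FLOX libraries (SD, n = 4 each) and was not called (edgeR adjusted p = 0.324). The lid sum, of which Psmd8 makes up the largest part, was 1087 ± 16.1 CPM across CKO libraries, against 1124 ± 79.6 CPM across FLOX libraries, while 6 of 8 lid genes had a positive fold change.

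Leaving aside Psma8, 31 core and cap subunits among the 47 members were tested and 23 of them were not called. The 95% intervals of these 23 all lie between 80.3% and 131.7% of FLOX. The ends of that span come from different genes, Psma7 (80.3%) and Psmc5 (131.7%), so it is no interval of 1 gene. Changes called in the other 8 subunits went up to 121% and down to 80.9% of FLOX. The fall to 80.9% lies inside the interval of Psma7 alone. The rise to 121% lies inside some of the intervals only, that of Psmd2, for one, ending at 115%. The lid subunit Rpn15 is listed under the symbol Shfm1 and so is no member by the naming rule. It had 137, 129.9, 131 and 116 CPM in CKO, against 185, 152, 177 and 138 CPM in FLOX, and stood at 78.8% of FLOX (edgeR log2 fold change -0.34 with an SE of 0.09, adjusted p = 0.00794), a lower share of FLOX than that of any core or cap subunit among the members. Its ranges did not overlap, CKO replicate 2 and FLOX replicate 7 lying closest. Adrm1, the ubiquitin receptor Rpn13, also outside the naming rule, was at 59.8 ± 2.61 CPM across CKO libraries, against 57.4 ± 6.59 CPM across FLOX libraries (SD, n = 4 each) and was not called (edgeR adjusted p = 0.582). Pomp, the chaperone of core maturation, was at 125 ± 4.91 CPM across CKO libraries, against 124 ± 15.1 CPM across FLOX libraries (edgeR adjusted p = 0.889).

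Among assembly factors 3 of 7 genes were higher and 1 lower (median 0.17), so that 57.1% were called, against 45.4% of all tested genes. The 3 called higher had the highest fold changes of all proteasome genes proper. Psmg2, which encodes PAC2 of the heterodimer that starts alpha ring assembly, had 20.3, 19.6, 22.4 and 19.6 CPM in CKO replicates 2, 6, 7 and 8, against 17.2, 14.1, 17.3 and 13.1 CPM in FLOX replicates 3, 4, 6 and 7. It was 132.2% of FLOX, interval 111% to 157% (edgeR log2 fold change 0.40 with an SE of 0.10, adjusted p = 0.00646). Its partner Psmg1 (PAC1; ENSMUSG00000022913, chromosome 16, 95979933 to 95990960) had 19.7, 18.5, 20.96 and 18.5 CPM in CKO, against 16.3, 12.6, 17.5 and 13.7 CPM in FLOX (edgeR log2 fold change 0.36 with an SE of 0.11, adjusted p = 0.0142). Both partners were higher in all CKO libraries. The second pair of core chaperones, Psmg3 and Psmg4, stood at 12.9 ± 1.45 CPM across CKO libraries, against 11.7 ± 2.41 CPM across FLOX libraries (edgeR adjusted p = 0.473) and at 9.46 ± 0.843 CPM across CKO libraries, against 8.33 ± 1.22 CPM across FLOX libraries (edgeR adjusted p = 0.261; SD, n = 4 each), with overlapping ranges. Among the chaperones of the ATPase base, Psmd5 (ENSMUSG00000026869, chromosome 2, 34849734 to 34874968) had 48.2, 55.8, 51.8 and 56.7 CPM in CKO, against 43.5, 40.1, 42.2 and 40.2 CPM in FLOX (edgeR log2 fold change 0.36 with an SE of 0.07, adjusted p = 0.001). Psmd10, known as gankyrin, went the other way, with 31.7, 29.3, 28.2 and 27.5 CPM in CKO, against 39.3, 34.3, 33.8 and 31.2 CPM in FLOX. CKO replicate 2 lay above FLOX replicate 7, making it the one called member whose ranges overlapped (edgeR log2 fold change -0.25 with an SE of 0.08, adjusted p = 0.0245), and its call ended without CKO replicate 6, 7 or 8 or without FLOX replicate 3 (edgeR adjusted p = 0.0625 to 0.0928). The last of them, Psmd9 (p27), was at 32.9 ± 0.490 CPM across CKO libraries, against 35.7 ± 2.30 CPM across FLOX libraries (edgeR adjusted p = 0.153).

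**Figure D4:**
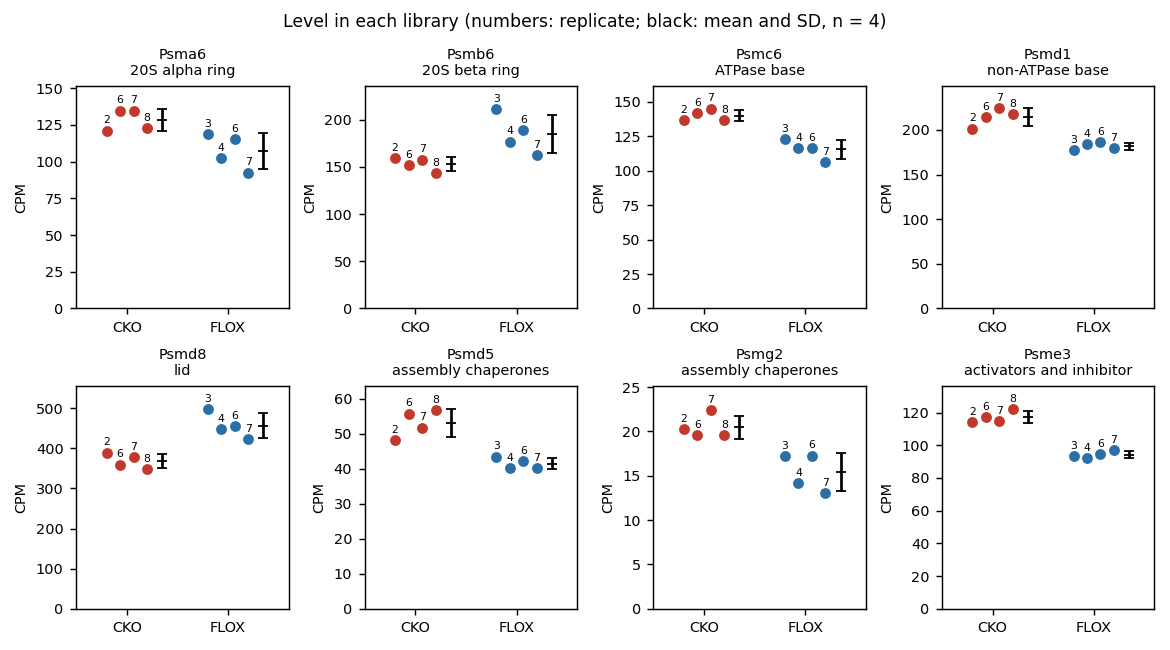
CPM (y axes, from 0) of 8 proteasome genes in each library, CKO in red on the left and FLOX in blue on the right, with the mean and SD in black (n = 4 each). CKO lies below FLOX for Psmb6 and Psmd8 and above it for the other 6, and the ranges do not overlap in any panel.

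Of the 6 genes for alternative caps and their partners 1 was called, as higher (16.7%, against 45.4% of all tested genes). Psme3, which encodes PA28gamma, the nuclear activator (ENSMUSG00000078652, chromosome 11, 101316213 to 101323537), had 114, 117, 115 and 122 CPM in CKO replicates 2, 6, 7 and 8, against 93.5, 92.2, 94.5 and 96.9 CPM in FLOX replicates 3, 4, 6 and 7. The groups were far apart relative to their spread (edgeR log2 fold change 0.31 with an SE of 0.05, adjusted p = 0.000445), the smallest p of all core, cap, chaperone and activator genes. The interferon-inducible pair Psme1 and Psme2, for PA28alpha and PA28beta, did not pass the test. Psme1 had 181, 172, 167 and 159 CPM in CKO, against 190.1, 176, 179 and 164 CPM in FLOX, and Psme2 had 161, 161, 158 and 143 CPM in CKO, against 186, 152, 168 and 144 CPM in FLOX. Their intervals were 85.9% to 106% (edgeR adjusted p = 0.426) and 83.5% to 109.8% of FLOX (edgeR adjusted p = 0.558). Psme4, for the nuclear activator PA200, had 135, 131.8, 136 and 147 CPM in CKO, against 134, 159, 140.0 and 169 CPM in FLOX. Its order among the FLOX libraries was the reverse of that of most members, with FLOX replicate 7 highest and FLOX replicate 3 lowest (log2 fold change -0.13, edgeR adjusted p = 0.197). Psmf1, for PI31, which binds the core and was named as an inhibitor, was at 29.7 ± 1.59 CPM across CKO libraries, against 28.2 ± 1.04 CPM across FLOX libraries (edgeR adjusted p = 0.372; SD, n = 4 each).

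Psme2b, an annotated copy of Psme2, and Psmc3ip carry the prefix but stand apart from the rest. Psme2b had 7.21, 7.84, 7.64 and 11.5 CPM in CKO, against 5.75, 9.30, 5.51 and 13.0 CPM in FLOX, with CKO replicate 8 and FLOX replicate 7 the highest (edgeR adjusted p = 0.897). Of the 50-base stretches of its transcript 68.7% occur letter for letter in Psme2, so reads cannot be assigned securely between them. Psmc3ip encodes HOP2, a cofactor of meiotic recombination and not a proteasome part. It had 6.62, 7.98, 7.40 and 6.94 CPM in CKO, against 3.30, 2.65, 3.24 and 2.70 CPM in FLOX, 242% of FLOX (edgeR log2 fold change 1.28 with an SE of 0.12, adjusted p = 6.05e-06). Of its 50-base stretches 27.1% are shared with the overlapping gene Mlx on the other strand, and the strand setting of the counting is not given in the sources used here.

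The genes spanned a wide range of levels per kilobase of the principal transcript. On average over all 8 libraries, assembly factors stood below the core and cap subunits other than Psma8. In FLOX alone Psmd10, at 24.2, stood above Psmd11, at 22.6. The longest of the best-ranked coding transcripts was used for each gene, and the order depends on that choice. Psmd5, with a transcript of 4397 bases, had the highest CPM of the assembly factors but the lowest level per kilobase. Medians over tested members and all 8 libraries were 95.4 CPM per kilobase for the alpha ring, 109 for the beta ring, 72.1 for the ATPase base, 62.8 for the lid and 16.0 for the assembly factors. In the alpha ring Psma4 (alpha3) was the highest, at 151 ± 3.52 CPM per kilobase in CKO and 152 ± 17.0 in FLOX (SD, n = 4 each). In the beta ring the order ran from Psmb6, at 192 ± 9.03 CPM per kilobase in CKO and 231 ± 25.7 in FLOX, down to Psmb5, at 51.9 ± 2.54 in CKO and 46.3 ± 6.64 in FLOX. The remaining beta genes lay between 84.0 and 116 on average over all 8 libraries. Psmd8 was the highest of all, at 239.6 ± 11.8 CPM per kilobase in CKO and 296 ± 20.03 in FLOX, and Psmd11 the lowest lid gene, at 25.96 ± 1.22 in CKO and 22.6 ± 0.361 in FLOX. In the base Psmc1 (Rpt2) and Psmc6 marked the ends of the ATPases, at 131 ± 4.45 and 62.7 ± 1.82 CPM per kilobase in CKO and 119 ± 10.9 and 51.7 ± 3.11 in FLOX. Among activators and their partners Psme2 was highest, at 162 ± 8.85 CPM per kilobase in CKO and 169 ± 19.7 in FLOX, and Psmf1 lowest, at 7.81 ± 0.417 in CKO and 7.40 ± 0.273 in FLOX. Reads that also match another gene may be lost from the counts, and the part of this in the levels was not tested. The 50-base stretches found in other annotated genes make up 57.1% of the Psmb5 transcript, 55.8% of Psmb3, 55.4% of Psma5 and 59.3% of Psme2, against 2.67% of Psmb6 and none of Psmd8. Over all members 23 share no such stretch and 11 share more than 20%, and of those 11 only Psmc3ip was called.

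**Figure D5:**
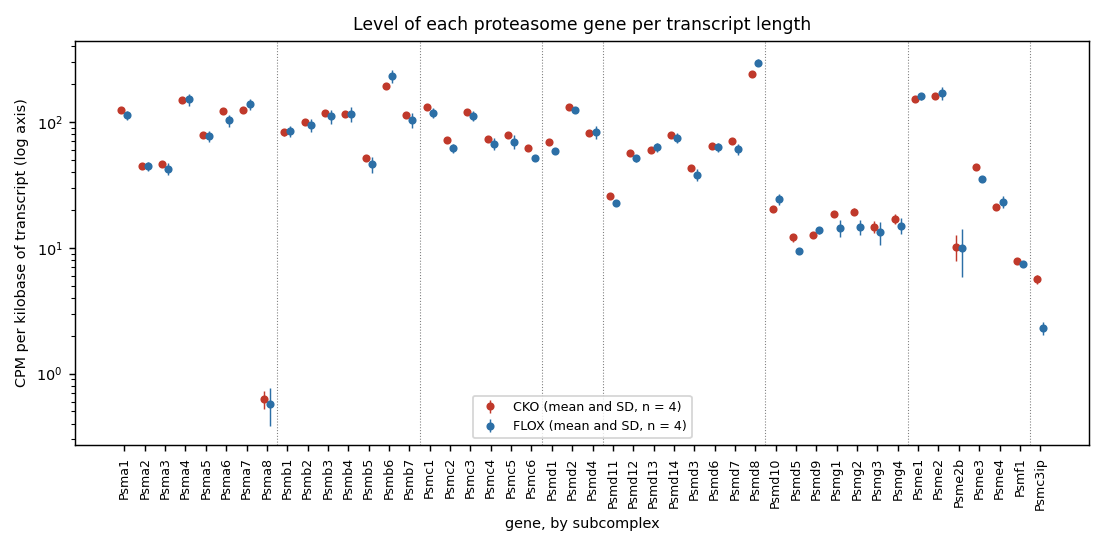
Level of each of 46 tested members in CPM per kilobase of its principal transcript (y axis, log scale), grouped by subcomplex (x axis, dotted lines between groups), as mean and SD of 4 CKO (red) and 4 FLOX (blue) libraries. The means drawn for assembly factors lie between 9.44 (Psmd5 in FLOX) and 24.2 (Psmd10 in FLOX), and Psmd8 lies highest.

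Among 33 tested partners of the proteasome in the ubiquitin pathway, taken from a list of transcription factors, shuttles, unfoldases and ubiquitin genes that also holds Shfm1, Adrm1 and Pomp, 9 rose and 5 fell, against 23.8% and 21.6% of all genes, the median log2 fold change being 0.02. The 4 with the smallest p are given here. Nfe2l1, the transcription factor that raises proteasome genes when proteolysis is impaired, had 289.6, 286, 284 and 267 CPM in CKO, against 210.4, 199, 232 and 227 CPM in FLOX (edgeR log2 fold change 0.37 with an SE of 0.06, adjusted p = 0.000408). Its relative Nfe2l2, the NRF2 of the oxidative stress response, had 262, 221, 222 and 231 CPM in CKO, against 336, 331, 314 and 309 CPM in FLOX (edgeR log2 fold change -0.46 with an SE of 0.07, adjusted p = 0.000131). The 2 factors moved in opposite directions without overlap of the groups. Uchl5, a deubiquitinase docked on the base, had 52.7, 60.4, 59.9 and 54.0 CPM in CKO, against 40.0, 30.2, 39.2 and 29.7 CPM in FLOX (edgeR log2 fold change 0.70 with an SE of 0.10, adjusted p = 0.000138). Zfand5, which encodes a zinc finger protein that binds and stimulates the 26S particle, had 173, 168, 192 and 181 CPM in CKO, against 247, 304, 231 and 255 CPM in FLOX (edgeR log2 fold change -0.54 with an SE of 0.08, adjusted p = 0.00021). Its direction was thus opposite to that of Uchl5.

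Promoter letters of the members were read from RefSeq sequence on GRCm38.p6, the assembly behind mm10, in windows from 250 bases before to 50 after the transcript start. A window was held for 39 of the 47 members, and Psma6, Psmc2 and Psme2 had 2 each. Psmg2 and Psmd7, both called higher, are among the members without one and so are in none of the shares below. Searched on both strands were CCGGAAG, a core of ETS family sites, TGACNNNGC, the core of the antioxidant response element read by the NFE2L factors, and CCAAT. The ETS letters were in the windows of 15 of 39 members (38.5%), against 21.3% of 8895 tested genes with a window and 9.93% of all 27025 genes with one. Counting any window, 7 of 9 members that rose held them, 0 of 3 that fell and 8 of 26 not called, against 16.4%, 21.1% and 23.6% of all tested genes with these calls. Psma6 counts there only through its second window, which lies inside the annotated gene. With the outermost window of each gene alone and Psmc3ip left out, 5 of 8 members that rose held the letters, 0 of 3 that fell and 8 of 26 not called, against 15.1%, 18.7% and 22.0% of all tested genes. The response element letters were in 6 members (15.4%), against 17.3% of tested genes, and CCAAT in 14 (35.9%), against 43.2%. No ETS match overlapped a match of the other motifs in the members. These are matches of letters only.

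Shown are the bases before the start of the gene with the smallest p called in each direction in each subcomplex, 5 that rose and then 3 that fell, to set their letters side by side. Only genes with a window and at least 200 of the 250 bases outside the annotated gene were eligible. This leaves out Psmg2, which rose but has no window, and Psmd5 and Psmd1. Psmd5 and Psmd1 rose too, and neither held ETS or response element letters in its window. The genes shown thus overstate how common the ETS letters are among members that rose and have a window. Sequences run 5′ to 3′ on the gene's strand, with ETS and response element letters in capitals. Those of Psmc6, Psmd10 and Psmd8 end at bases 37, 18 and 29 before the RefSeq start, where the annotated gene begins.
Psma6 (chr12:55383972-55384221, + strand): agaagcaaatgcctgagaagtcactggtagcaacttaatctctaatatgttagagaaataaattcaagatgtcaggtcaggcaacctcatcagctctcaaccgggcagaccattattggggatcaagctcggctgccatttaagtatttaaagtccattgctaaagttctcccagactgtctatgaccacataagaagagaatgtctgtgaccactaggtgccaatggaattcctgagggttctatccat
Psmc6 (chr14:45329574-45329787, + strand): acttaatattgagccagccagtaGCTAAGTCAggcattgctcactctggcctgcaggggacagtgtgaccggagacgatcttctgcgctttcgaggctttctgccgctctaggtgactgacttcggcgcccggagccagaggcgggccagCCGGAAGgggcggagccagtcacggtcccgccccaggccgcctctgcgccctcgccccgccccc
Psmd11 (chr11:80428365-80428614, + strand): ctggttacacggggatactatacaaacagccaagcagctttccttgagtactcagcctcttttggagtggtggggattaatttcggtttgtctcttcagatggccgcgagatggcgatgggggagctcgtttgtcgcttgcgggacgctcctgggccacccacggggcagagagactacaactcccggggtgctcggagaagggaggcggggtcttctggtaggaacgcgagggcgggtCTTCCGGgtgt
Psmg1 (chr16:95990961-95991210, - strand): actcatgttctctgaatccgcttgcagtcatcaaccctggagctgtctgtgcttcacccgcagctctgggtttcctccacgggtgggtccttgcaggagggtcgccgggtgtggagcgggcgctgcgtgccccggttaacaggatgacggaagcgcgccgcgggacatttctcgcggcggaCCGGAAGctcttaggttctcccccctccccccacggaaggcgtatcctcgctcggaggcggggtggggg
Psme3 (chr11:101315963-101316212, + strand): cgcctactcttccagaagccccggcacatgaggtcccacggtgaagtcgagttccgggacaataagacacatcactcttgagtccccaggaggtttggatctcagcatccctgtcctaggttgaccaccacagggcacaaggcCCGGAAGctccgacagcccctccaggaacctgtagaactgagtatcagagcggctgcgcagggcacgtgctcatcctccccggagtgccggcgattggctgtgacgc
Psmb6 (chr11:70525107-70525356, + strand): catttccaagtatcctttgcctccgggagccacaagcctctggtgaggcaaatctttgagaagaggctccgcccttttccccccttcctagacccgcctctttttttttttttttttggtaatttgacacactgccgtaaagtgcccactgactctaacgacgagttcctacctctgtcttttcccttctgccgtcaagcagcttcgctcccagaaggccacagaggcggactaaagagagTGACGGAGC
Psmd10 (chrX:140956729-140956961, - strand): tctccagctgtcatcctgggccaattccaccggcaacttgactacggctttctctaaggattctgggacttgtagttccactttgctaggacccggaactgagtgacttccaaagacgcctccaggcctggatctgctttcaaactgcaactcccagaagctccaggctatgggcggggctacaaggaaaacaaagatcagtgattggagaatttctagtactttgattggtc
Psmd8 (chr7:29180702-29180923, - strand): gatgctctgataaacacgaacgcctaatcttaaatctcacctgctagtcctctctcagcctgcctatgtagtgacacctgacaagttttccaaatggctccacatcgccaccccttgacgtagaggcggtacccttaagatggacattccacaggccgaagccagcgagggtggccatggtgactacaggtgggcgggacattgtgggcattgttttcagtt
Psmd11, Psmg1 and Psme3 hold an ETS match, Psmc6 both kinds, Psmb6 a response element match that ends at the last base before the start, and the bases shown for Psma6, Psmd10 and Psmd8 neither. Psma6 is shown at its outermost window only, and its second window does hold ETS letters. Which start these cells use was not examined. Binding at these promoters was not measured.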

How the data were processed

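Each library has a deposited file of raw counts, read pairs per gene symbol as whole numbers, which the authors did not normalize. HISAT2 2.0.5, HTSeq and the build mm10 are named in the submitters' processing notes, while the HTSeq version, annotation and strandedness are not given there. Classes of unassigned pairs were kept out (66.3% to 71.7% of pairs were assigned). Multiply aligned pairs are not in gene counts, so genes with close copies may lose reads. A table of the series holds the same counts, with some symbols turned into dates, and was not used (0 columns without a sample).

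The test was run with edgeR 4.0.16 in R 4.3.3: filterByExpr (minimum count 10, minimum total 15), TMM factors, robust dispersions and the quasi-likelihood F test over 11519 genes with 6 residual degrees of freedom, Benjamini-Hochberg adjusted over all of them and called at 0.05. SEs were taken as the size of the log2 fold change over the root of the F statistic, and 95% intervals from a t distribution with 6 degrees of freedom. These intervals are wider than the p-values of the F test would give. That of Psmc5, for one, runs from 99.6% to 131.7% of FLOX at an unadjusted edgeR p of 0.0347. No 2 libraries of a genotype agreed within counting noise (chi-square over its degrees of freedom 2.45 to 27.9). In FLOX this value was 6.45 for replicates 3 and 6 and 4.52 for replicates 4 and 7. For the other FLOX pairs it was 15.6 to 27.9, and for CKO pairs 2.45 to 9.63. Alternatives used DESeq2 1.42.0 and limma 3.58.1. The pipeline was tested on simulated data.

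The members and lists were chosen with earlier results of these data known. Values in every library, or the mean and SD of each genotype, are given for up to 3 members of smallest p in each subcomplex. The same holds for the catalytic genes, the activators, the members of highest and lowest level per kilobase, and up to 4 partners of smallest p. Psma5, Psmb3, Psmb11, Psmc3ip, Psmd9, Psmd14, Psme2b, Psmg3, Psmg4, Shfm1, Adrm1 and Pomp were named after their values were seen. Positions, principal transcript lengths and 50-base matches come from GENCODE M21 (GRCm38).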

Additional observations from a re-analysis of the deposited data

Results flagged for a closer look

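Within groups of 4 libraries, 3 of 92 combinations of member and genotype held a library far from the other 3, by the gap to the nearest library relative to the range, and chance alone gives about 1 in 20. All 3 lay in CKO replicate 8. There Psmb3 stood at 84.2 CPM, against 91.9 to 92.8 CPM in the other CKO libraries, Psmd11 at 79.1 CPM, against 71.7 to 72.6 CPM, and Psme2b at 11.5 CPM, against 7.21 to 7.84 CPM. Psmd11 was still called higher in CKO with that library left out.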

How the results depend on the processing

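Counts of called members were 11 higher and 3 lower under RLE and upper-quartile factors, no filter on low counts, a filter of CPM of at least 1 in at least 4 libraries, DESeq2 and limma-voom, and 14 higher and 3 lower with the 20 most abundant genes removed or with CKO replicate 2 and FLOX replicate 6 left out together. Leaving out 1 library at a time gave 9 (without FLOX replicate 4) to 16 (without FLOX replicate 3) of 46 members higher. It gave 1 to 3 lower, with 1 lower without CKO replicate 8. Over all tested genes 2545 of 11612 were higher without FLOX replicate 4 and 2719 of 11597 without FLOX replicate 3. Without CKO replicate 8, 1830 of 11581 were lower. The median log2 fold change of the tested members ran from 0.05 to 0.15 over these fits. Of 782 single-gene values under the alternatives 221 kept a call, 528 were not called in either fit, 17 lost a call, 16 gained one and 0 changed direction with a call. Replicate numbers 6 and 7 occur in both genotypes, but their libraries did not deviate together (r = 0.14 and -0.07 across genes), so the number is not treated as pairing. With it as a replicate block, edgeR called 5 members higher and 0 lower (11 and 1 at an unadjusted p under 0.05), the fit resting on those 4 libraries for the contrast, with a median of 0.14 and 3503 called genes instead of 5231. Depth limits Psma8, with 9 to 22 pairs per library, while Psme2b had 82 to 183 pairs, and its wide interval goes with spread between libraries.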
